A study of Mus musculus with 4 samples.

Results

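Splicing factors and the RNA-binding proteins that steer them were followed in the dentate gyrus of the mouse hippocampus, on 4 single-channel oligonucleotide arrays. Members were taken by name: every probe set, other than the array's own controls, that the array annotation gives to exactly 1 gene with a symbol beginning Srsf and a digit, Hnrn, Sf3a, Sf3b, Snrp, Prpf, U2af, Tra2, Celf and a digit, Rbfox, Nova and a digit, Elavl, Khdrbs or Ptbp. This gave 64 genes with 87 probe sets, out of 8251 genes and 12422 probe sets that are not controls. All 4 samples were total RNA of young male C57BL/6J mice that an experimenter handled and that received no treatment beyond that. Their RNA was taken 1, 2, 4 and 6 h after the shocked mice of the same experiment had their last shock, with 1 array for each hour, and the shocked mice are not analysed here. How many mice contributed to each RNA is not stated, so the spread between arrays may be partly technical, and with 1 array there is no error to set beside a single hour.

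Splicing removes introns from pre-mRNA through the spliceosome, which is built from small nuclear ribonucleoproteins (snRNPs) and many further proteins. SR proteins mostly help it to recognise exons, and heterogeneous nuclear ribonucleoproteins (hnRNPs) often do the opposite. Neurons add RNA-binding proteins of their own, such as the neuronal Elavl (Hu) proteins, Nova, Rbfox and Ptbp2, which set brain-specific exon choice and the stability of neuronal transcripts. Members were therefore read as general (58 genes, 79 probe sets) or neuronal. Of 16 genes listed as enriched in neurons or brain, 6 had a probe set of their own: Celf4, Elavl2, Elavl3, Elavl4, Ptbp2 and Rbfox2, with 8 probe sets. The other 10, Celf3, Celf5, Celf6, Rbfox1, Rbfox3, Nova1, Nova2, Khdrbs2, Khdrbs3 and Snrpn, had none under the rule, so the Nova family is not represented. A further 7 probe sets were annotated to several genes at once, among them those of Hnrnpa3, Snrpa, Snrpd1 and Snrpd2, and were left out.

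Values are the deposited intensities on a linear scale. A probe set's intensity also depends on its probes, so levels are compared between hours and not between genes. Intensities under 16.4, the 10th percentile of all values that are not controls, were raised to it before log2 was taken. A probe set entered the tests when its mean log2 intensity reached 6.66, an intensity of about 101, and 72 of the 87 members (82.8%) did, against 7453 of 12422 probe sets (60%) on the whole array. Such probe sets are called bright enough below. The 15 that were not belonged to Srsf1 (3 probe sets), Prpf39 (2), and Srsf10, Hnrnpab, Hnrnpdl, Hnrnpu, Celf1, Ptbp2, Rbfox2, Prpf4b, Snrpb and Snrpb2 (1 each), so that Prpf39 and Prpf4b alone dropped out as genes. Granule cells, the principal neurons of the tissue, were represented by Calb1 (2033, 2052, 2323 and 2375 at 1, 2, 4 and 6 h), Neurod2 (1193, 1857, 1673 and 1920) and, faintly, Prox1 (71.6, 278, 155 and 232). Markers of other cells were also measured, such as Rgs14 of CA pyramidal neurons (mean 3426), Apoe of astrocytes, Mbp of oligodendrocytes and Ttr of the choroid plexus. Values of neuronal genes are therefore not assigned to granule cells. These arrays report a whole tissue, in which fewer cells of a type and less RNA per cell cannot be told apart. Ttr read 225, 444, 1258 and 3009 and was the 1 probe set of the array that passed the trend test, and its list had 3 of 4 bright probe sets with positive slopes. Positive slopes made up 46.5% of all probe sets. They were found in 6 of 6 bright granule cell probe sets, 5 of 6 of the neuron list and 1 of 7 of the endothelial list. In the oligodendrocyte, microglia, astrocyte and CA pyramidal lists the counts were 6 of 9, 4 of 7, 3 of 7 and 2 of 4. Apart from the choroid plexus list, none had a probe set past the adjusted threshold. These counts include the 1 h array described below, and counts without it are not given. The part of the cell makeup in the members' values was not tested.

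The 1 h array stood apart from the others. The ratio of the 3' to the 5' control probe set of Gapdh, a glycolytic enzyme used to gauge RNA integrity, was 4.88 at 1 h and 1.13, 1.33 and 1.24 at 2, 4 and 6 h, and that of beta-actin was 2.51, 1.83, 2.20 and 1.97. Over the 72 bright members, Pearson's r between arrays, given as a description across probe sets that share their arrays, lay between 0.91 and 0.94 where 1 of them was the 1 h array, and at 0.96 in each of the other 3 pairs. The median intensity of all probe sets differed at 6 h by -0.11 log2 units from the mean of the earlier hours, although the trimmed means were equal. For some of the orders, counts and slopes described below, the value without the 1 h array is given too. Where none is given, the printed value may also depend on that array.

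The neuronal members all had at least 1 bright probe set, and 0 of these 6 spanned 2-fold between its lowest and highest array, against 18.5% of all probe sets. Those of Celf4 and Rbfox2 may also match other genes, as described below. Elavl3 (HuC, a neuronal Hu protein that binds AU-rich RNA) read 527, 602, 895 and 907 at 1, 2, 4 and 6 h. Each value was above the one before, with the 4 h and 6 h arrays well above the earlier pair. The slope was 0.17 ± 0.05 (SE) log2 units per hour, with an unadjusted p of 0.0146 and an adjusted p of 0.874 in limma over all 7453 probe sets, so the trend did not pass the test. Elavl3 kept a positive slope in all 12 alternative settings, and without the 1 h array it was 0.15 ± 0.06 (limma adjusted p = 0.947).

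The other Hu genes did not share that order of the 4 values. Elavl2 (HuB) read 444, 365, 395 and 591, lowest at 2 h and highest at 6 h, with a slope of 0.09 ± 0.07 log2 units per hour (limma adjusted p = 0.874). Without the 1 h array that slope was 0.17 ± 0.07 (unadjusted p = 0.043, limma adjusted p = 0.947). Elavl4 (HuD), another neuronal Hu gene, read 214, 182, 160 and 194, and its slope was -0.03 ± 0.08 (limma adjusted p = 0.966), and 0.02 ± 0.13 without the 1 h array. The widely expressed Hu gene Elavl1 (HuR), a general member, read 330, 470, 380 and 415, lowest at 1 h. The 6 h array lay above the mean of the other 3 by 0.56 (Elavl2), 0.46 (Elavl3), 0.07 (Elavl4) and 0.09 (Elavl1) log2 units. A difference of a single array has no replicate check.

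Celf4, a CELF protein of neurons that binds and regulates transcripts of synaptic proteins, had the brightest neuronal probe set, at 4495, 3237, 3611 and 3865. Its mean was 3802 ± 529 (SD, n = 4), and the 1 h array was the highest. That probe set carries the suffix _f_at, which marks probes that may also match related genes. Ptbp2, which replaces the general repressor Ptbp1 as neurons form, read 343, 320, 337 and 435 on its bright probe set. The first 3 arrays lay close together and the 6 h array above them, with a slope of 0.07 ± 0.06 log2 units per hour (limma adjusted p = 0.887), and 0.11 ± 0.08 without the 1 h array. A second Ptbp2 probe set, too dim to test, read 46.3, 84.6, 52.4 and 62.0. Rbfox2, a splicing regulator also found outside neurons, read 336, 468, 522 and 351 on its bright probe set, higher at 2 and 4 h than at either end. That probe set carries the suffix _r_at, so its probes may also match other genes. The other Rbfox2 probe set, without such a suffix, was too dim to test, at 27.2, 40.9, 43.8 and 39.6.

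**Figure D1:**
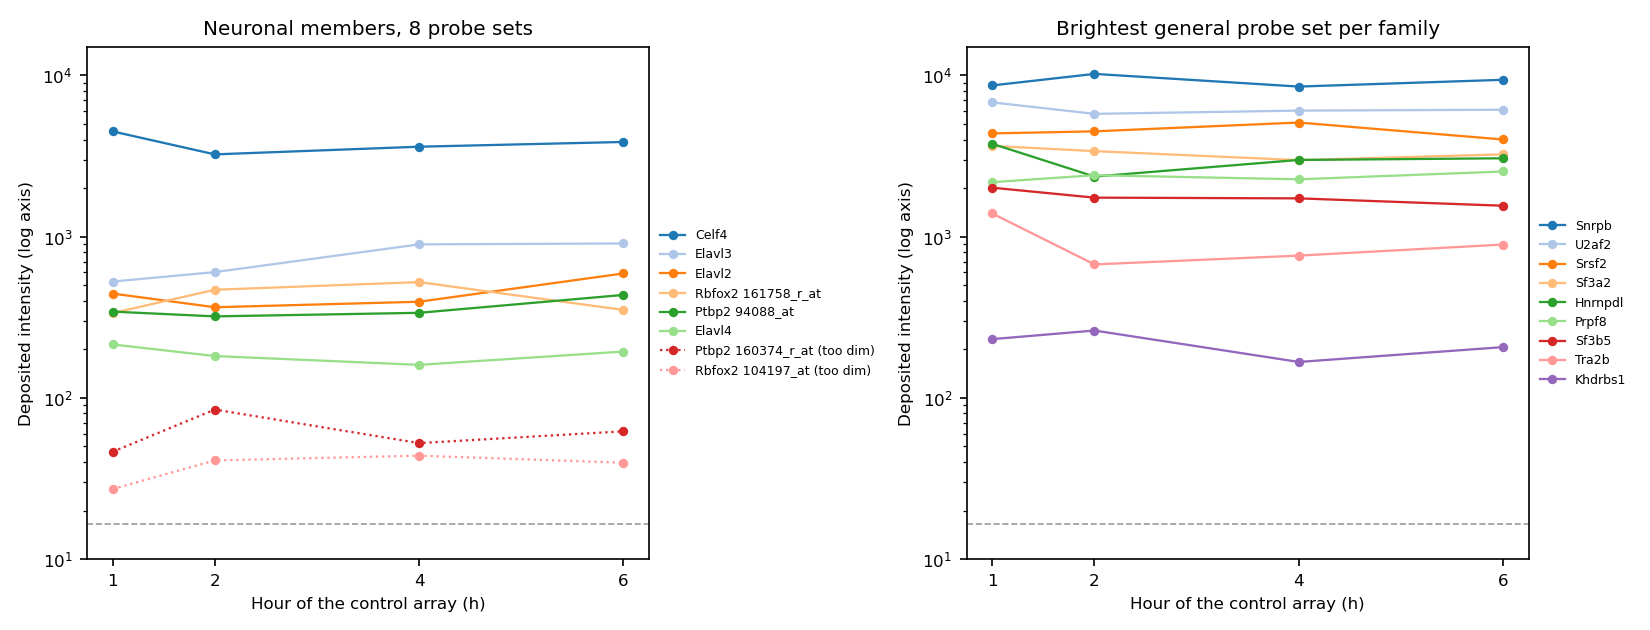
Deposited intensity (log axis) against the hour of the control array, 1 point per array: the 8 neuronal probe sets on the left, and on the right the brightest general probe set of each name family that has one. Dotted lines are probe sets too dim to test and the dashed line is the floor of 16.4. Elavl3 rises at each step, while Snrpb, U2af2 and Prpf8 stay nearly level.

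Neuronal and general members are set side by side as lists, with no test between them. The median SD of the 6 bright neuronal probe sets over the 4 arrays was 0.25 on the log2 scale, against 0.21 for the 66 bright general probe sets and 0.24 for all 7453. Without the 1 h array these were 0.27, 0.16 and 0.18. Slopes were positive in 4 of 6 neuronal and 31 of 66 general probe sets, against 46.5% of all probe sets, with medians of 0.04, -0.01 and -0.01 log2 units per hour. Without the 1 h array, 5 of 6 neuronal and 28 of 66 general slopes were positive, against 47.7% of all probe sets. Without the 6 h array the neuronal median slope was -0.02, and with arrays scaled to the same median the general one was 0.01, so neither sign held in every setting.

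The general members fall into spliceosome proteins (Snrp, Sf3a, Sf3b, U2af and Prpf), SR proteins and hnRNPs, with 28, 13 and 20 bright probe sets, and 5 others. Their median SDs were 0.19, 0.25 and 0.24 in that order over the 4 arrays, and 0.14, 0.11 and 0.19 without the 1 h array, so which group varied least depended on that array. Snrpc, the U1 snRNP protein that helps to recognise the start of the intron, read 1080, 1100, 1115 and 1097, a mean of 1098 ± 14.4 (SD, n = 4) and the smallest spread of all 72 members (SD 0.02 on the log2 scale). Snrpb, which encodes a Sm protein of the snRNP core, had the probe set of highest intensity, at 8665, 10217, 8524 and 9390. That probe set has the suffix _r_at and may also match other genes. Its spread was 0.12 on the log2 scale and its slope 0.00 ± 0.04 log2 units per hour. A second Snrpb probe set was far too dim to test, at 64.7, 7.0, 10.6 and 4.8, with 3 of its 4 values under the floor.

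U2AF recognises the end of the intron. U2af2, the U2AF subunit that binds the polypyrimidine tract, read 6799, 5775, 6047 and 6123, highest at 1 h, with an SD of 0.10. U2af1l4, a relative of the small U2AF subunit, read 1111, 1007, 1103 and 1074 (SD 0.06). U2af1, that small subunit itself, read 720, 716, 578 and 575, with both later arrays below both earlier ones, and its slope of -0.08 ± 0.05 log2 units per hour did not pass (limma adjusted p = 0.874). U2af1 lies outside the rule for naming genes and was chosen after its values were seen.

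Sf3a and Sf3b proteins belong to the U2 snRNP and hold it at the branch point. Their 10 bright probe sets had SDs between 0.12 and 0.29, and none spanned 2-fold between arrays. Sf3b5 read 2011, 1745, 1727 and 1555, each value below the one before, with a slope of -0.06 ± 0.04 log2 units per hour (limma adjusted p = 0.874). Sf3b6, which contacts the branch point and was named after its values were seen, was likewise ordered, at 1989, 1740, 1663 and 1587, without passing the test (limma adjusted p = 0.874). Prpf8, the large scaffold at the catalytic centre of the spliceosome, read 2176, 2405, 2267 and 2535, with an SD of 0.10. Within families the SDs ran between 0.02 and 0.70 for the 8 bright Snrp probe sets, 0.10 and 0.73 for the 7 of Prpf and 0.06 and 0.18 for the 3 of U2af.

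Among SR proteins, Srsf6 and 1 probe set of Srsf3 were among the 5 steadiest members: Srsf6 read 705, 770, 689 and 681, and Srsf3 302, 269, 279 and 264, each with an SD under 0.1. Srsf2, an SR protein that binds exonic enhancers, read 4367, 4498, 5100 and 4003 on the brightest SR probe set. The suffix _s_at of that probe set marks probes that may also match other genes. Tra2b, a splicing activator related to SR proteins, read 1392, 672, 762 and 893, so the 1 h array lay above all others, at 2.07 times the 2 h value. Its spread was 0.46 on the log2 scale. Srsf10, a splicing repressor that responds to phosphorylation, read 59.3, 200, 73.7 and 173 on its bright probe set, with the 2 h and 6 h arrays high and the other 2 low, and 121, 77.0, 44.2 and 121 on another that was too dim to test.

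The hnRNPs bind nascent transcripts widely. Hnrnpdl, an hnRNP D relative, read 3763, 2358, 2989 and 3061 on the brightest hnRNP probe set, highest at 1 h and lowest at 2 h. That probe set has the suffix _s_at and may also match other genes. The second bright Hnrnpdl probe set, without such a suffix, repeated that order more steeply, at 1449, 593, 869 and 874. It was named after its values were seen. Hnrnpa2b1, which also takes part in mRNA transport, read 3143, 2238, 2085 and 2146, with the 1 h array high and the later 3 close together. The slope of -0.09 ± 0.05 log2 units per hour was among the 5 most negative of the members and did not pass (limma adjusted p = 0.874), and without the 1 h array it was -0.02 ± 0.04. Hnrnpll, known for regulating splicing in lymphocytes, read 338, 416, 392 and 631, with the 6 h array well above the rest. Its slope was 0.15 ± 0.06 (unadjusted p = 0.0427, limma adjusted p = 0.874), and Hnrnph2, a regulator that binds G-rich RNA, had one of 0.11 ± 0.07 (limma adjusted p = 0.874). The 19 bright Hnrn probe sets had SDs between 0.11 and 0.53. Ptbp3, named after its values were seen, is grouped with them. This relative of Ptbp1 read 291, 282, 295 and 218. Khdrbs1 (Sam68), an RNA-binding protein linked to signalling, read 231, 262, 167 and 206, lowest at 4 h, with a slope of -0.07 ± 0.08 (limma adjusted p = 0.926).

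**Figure D2:**
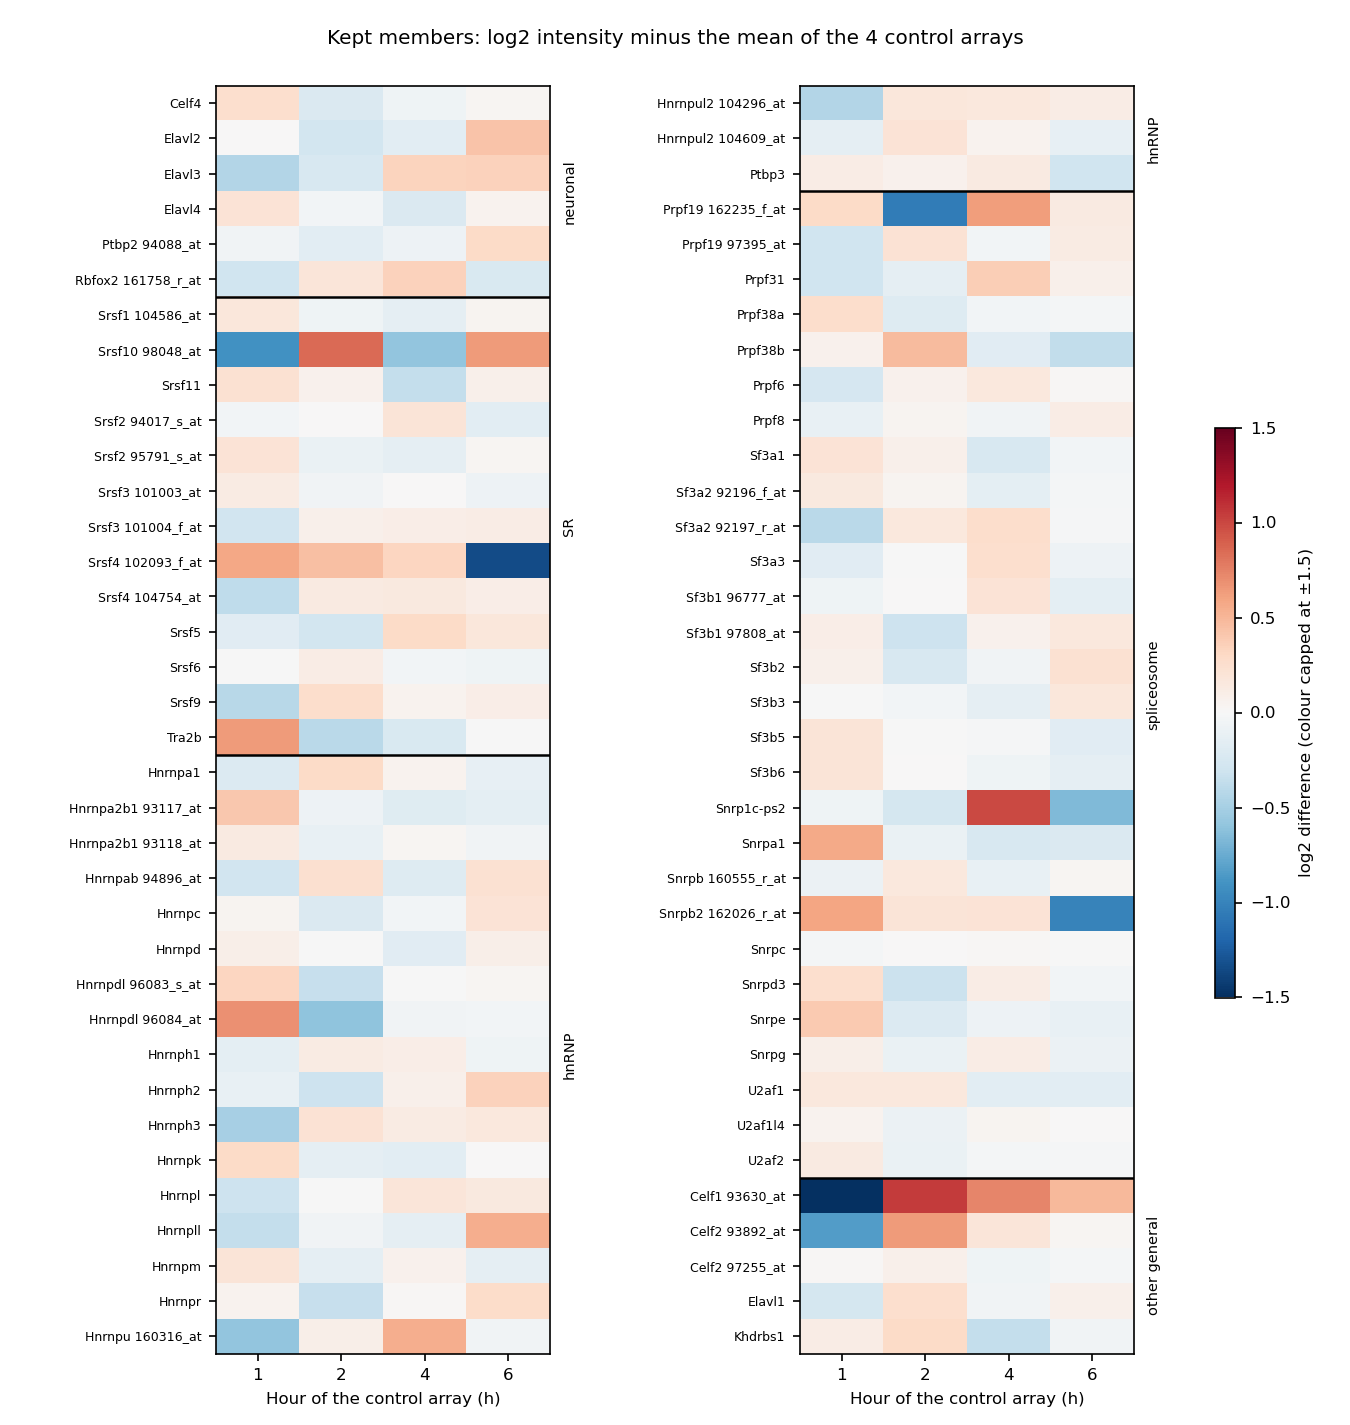
Log2 intensity of each of the 72 bright members minus its own mean over the 4 control arrays, by hour, in blocks of neuronal, SR, hnRNP, spliceosome and other general members, with genes that have several probe sets labelled by probe set. Colours are capped at 1.5 log2 units, and Celf1 at 1 h lies beyond the cap. The strongest colours belong to a few probe sets, among them Celf1, Srsf10, Srsf4, Snrpb2 and Snrp1c-ps2, while Snrpc is nearly white throughout.

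No member showed a trend over the hours that passed the test. The count was 0 of 72 in limma at an adjusted p under 0.05, against 1 of 7453 probe sets (0.0134%), and that count was also 0 in each alternative setting tried. At an unadjusted p under 0.05 there were 4 members, 2 positive and 2 negative, against 328 probe sets on the whole array (4.4%, of which 2.04% positive and 2.36% negative). They were Elavl3 and Hnrnpll with positive slopes, and Srsf4 and Snrpb2 with negative ones. Without the 1 h array the unadjusted count was 8 of 72, against 5.23% of all probe sets, and the lowest adjusted p of a member was 0.898 in limma. In 2 members each hour's value was above the previous one and in 4 each was below it, together 8.33%, against 10.4% of all probe sets. Scaling the arrays to the same median, which raises the 6 h array of every probe set, moved the share of positive slopes to 66.7% for members and 58.1% for all probe sets, against 48.6% and 46.5% as deposited, so the balance of directions depends on the scaling.

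The most negative slopes were those of Srsf4, Snrpb2, Snrpa1, Prpf38b and Hnrnpa2b1. Srsf4, an SR protein, read 326, 297, 271 and 85.5 on a probe set with the suffix _f_at, so that the first 3 arrays lay close together and the 6 h array was 3.47-fold lower than their mean. Its slope was -0.36 ± 0.10 log2 units per hour (unadjusted p = 0.0115, limma adjusted p = 0.874). Its other bright probe set read 462, 659, 662 and 641 and showed no fall at 6 h. Snrpb2, a protein of the U2 snRNP, read 439, 334, 337 and 146 on a probe set with the suffix _r_at, with a slope of -0.28 ± 0.08 (unadjusted p = 0.0109, limma adjusted p = 0.874). A second Snrpb2 probe set, just too dim to test, read 126, 59.9, 118 and 116, without the low value at 6 h. Snrpa1, the U2 snRNP protein that partners Snrpb2, read 232, 146, 133 and 135, so its negative slope of -0.13 ± 0.10 came with a high 1 h array (limma adjusted p = 0.876), and without that array it was -0.03 ± 0.15. Prpf38b, a relative of the spliceosome protein Prpf38a, read 237, 315, 202 and 176, with a slope of -0.13 ± 0.08 (limma adjusted p = 0.874), and -0.21 ± 0.11 without the 1 h array.

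Differences of at least 2-fold were few, and their shares lay near those of the whole array. The highest array was at least 2-fold above the lowest in 10 of 72 members (13.9%), against 18.5% of all probe sets, and in 5 of 72 (6.94%), against 8.22%, without the 1 h array. Against the mean of the other 3 arrays on the log2 scale, 3 members lay at least 2-fold away at 1 h (4.17%, against 7.08%), 3 at 2 h (4.17%, against 3.39%), 1 at 4 h (against 2.82%) and 2 at 6 h (2.78%, against 2.76%). Compared with 1 h, 6 members differed at 2 h (8.33%, against 9.79%), 4 at 4 h (5.56%, against 8.41%) and 4 at 6 h (5.56%, against 9.34%). Against the mean of the other 2 later arrays, a reference that leaves out 1 h and was chosen after its Gapdh ratio was seen, the counts were 1 at 2 h (against 3.15%), 3 at 4 h (4.17%, against 3.15%) and 3 at 6 h (4.17%, against 2.72%).

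All 3 members apart at 1 h were low there, as were 5.29% of all probe sets. Celf1, a general CELF protein that binds GU-rich RNA, read 22.2, 221, 177 and 150 on its bright probe set, 8.11-fold lower at 1 h than the mean of the others, and close to the floor of 16.4. Its slope, the largest positive one, was 0.38 ± 0.25 log2 units per hour (limma adjusted p = 0.874), and -0.14 ± 0.12 without the 1 h array. Its second probe set, too dim to test, ran the other way, at 128, 56.3, 19.3 and 41.1. Celf2, another CELF gene, read 220, 614, 445 and 400 on 1 probe set, 2.18-fold lower at 1 h, and 501, 522, 473 and 483 on another, which is one of the 5 steadiest members. The third was the Srsf10 probe set given above, 2.31-fold lower at 1 h. For each of these 3 genes the Gapdh ratio of 4.88 belongs to the same array, and its part in the low values was not tested.

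At the other hours, Prpf19, a scaffold of the complex that activates the spliceosome, read 139, 55.2, 177 and 125 on an _f_at probe set, 2.63-fold lower at 2 h than the mean of the others, and 976, 1386, 1161 and 1306 on another, which was not low at 2 h. Snrp1c-ps2, whose symbol marks a pseudogene, read 434, 378, 899 and 288 on another _f_at probe set. The 4 h value was 2.49-fold above the mean of the others, and that probe set may also take up transcripts of related genes. Hnrnpu, a nuclear matrix hnRNP named after its values were seen, was the last of the 10 members that spanned 2-fold, at 135, 215, 295 and 196. A second Hnrnpu probe set, too dim to test, ran the other way at 4 h. It read 123, 117, 44.8 and 59.9.

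Differences of this size were more common among dim probe sets. When the 7453 probe sets were put in 4 equal bins of mean intensity, the dimmest held 10 members, 5 of which spanned at least 2-fold, and 45.2% of all its probe sets did so. In the brightest bin the count was 0 of 22 members, against 4.72% of all probe sets. The median SD of members from the dimmest to the brightest bin was 0.42, 0.22, 0.25 and 0.16 on the log2 scale, beside 0.42, 0.27, 0.21 and 0.16 for all probe sets. Over all 72 members the median SD was 0.21, against 0.24 for all probe sets, with 32 of 72 members above the latter value. An array stood apart by the ratio of its gap to the whole range in 7 members (9.72%), against 8.63% of all probe sets.

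**Figure D3:**
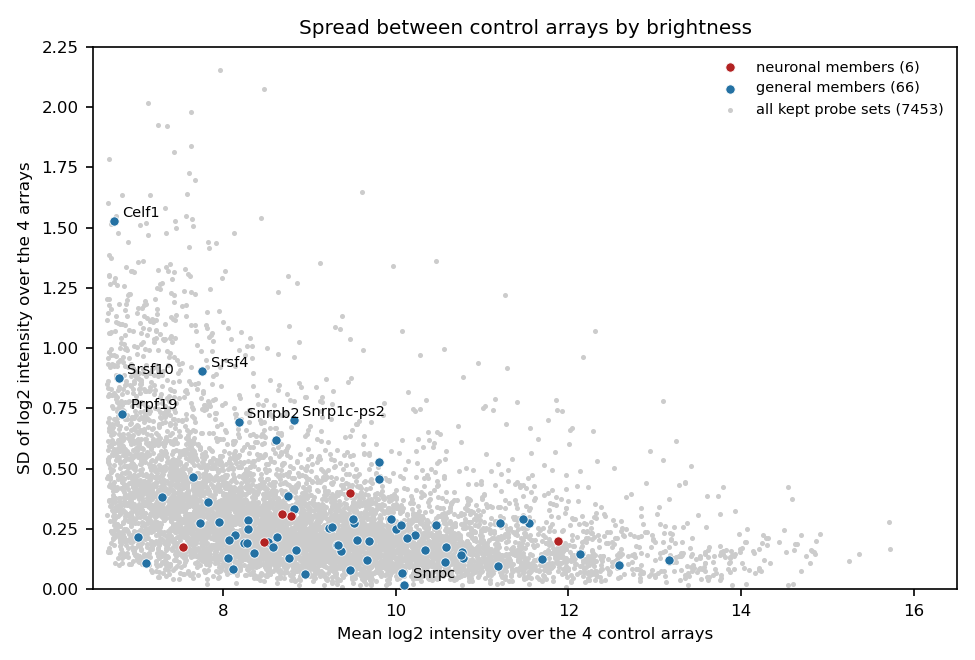
SD of log2 intensity over the 4 control arrays against mean log2 intensity, 1 point per probe set, with the 6 bright neuronal members, the 66 bright general members and all 7453 probe sets. Members lie within the cloud of all probe sets at each brightness. Celf1 has the largest spread of the members (1.53) and Snrpc the smallest (0.02).

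Of the 10 genes with several bright probe sets, 6 had slopes of opposite sign over the 4 arrays, and none of these slopes passed the test. Without the 1 h array 5 did, of which Srsf3 and Sf3b1 were the same and Hnrnpa2b1, Prpf19 and Srsf2 were not, so the genes counted depend on that array. Apart from Celf2 and Srsf4, the 6 were Srsf3, Hnrnpul2, Sf3a2 and Sf3b1. Srsf3, a small SR protein, read 300, 386, 395 and 397 on the probe set not yet given, low at 1 h and level afterwards. Hnrnpul2, an hnRNP U relative, read 538, 818, 810 and 784 on 1 probe set, again low at 1 h alone, and 420, 530, 478 and 421 on the other. Sf3a2 read 3653, 3391, 2981 and 3238 on an _f_at probe set and 2166, 3188, 3443 and 2838 on an _r_at one. The 1 h array was highest on the first and lowest on the second, and both may also match related genes. Sf3b1, the branch-point protein often mutated in blood cancers, read 314, 329, 377 and 297 on 1 probe set and 1199, 905, 1170 and 1248 on the other. In Srsf3, Srsf4, Hnrnpul2, Sf3a2 and Celf2, the 1 h array was the lowest on the probe set of positive slope, by 0.39, 0.50, 0.58, 0.54 and 1.12 log2 units below the mean of the others. Where in a transcript each probe set lies was not used here.

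**Figure D4:**
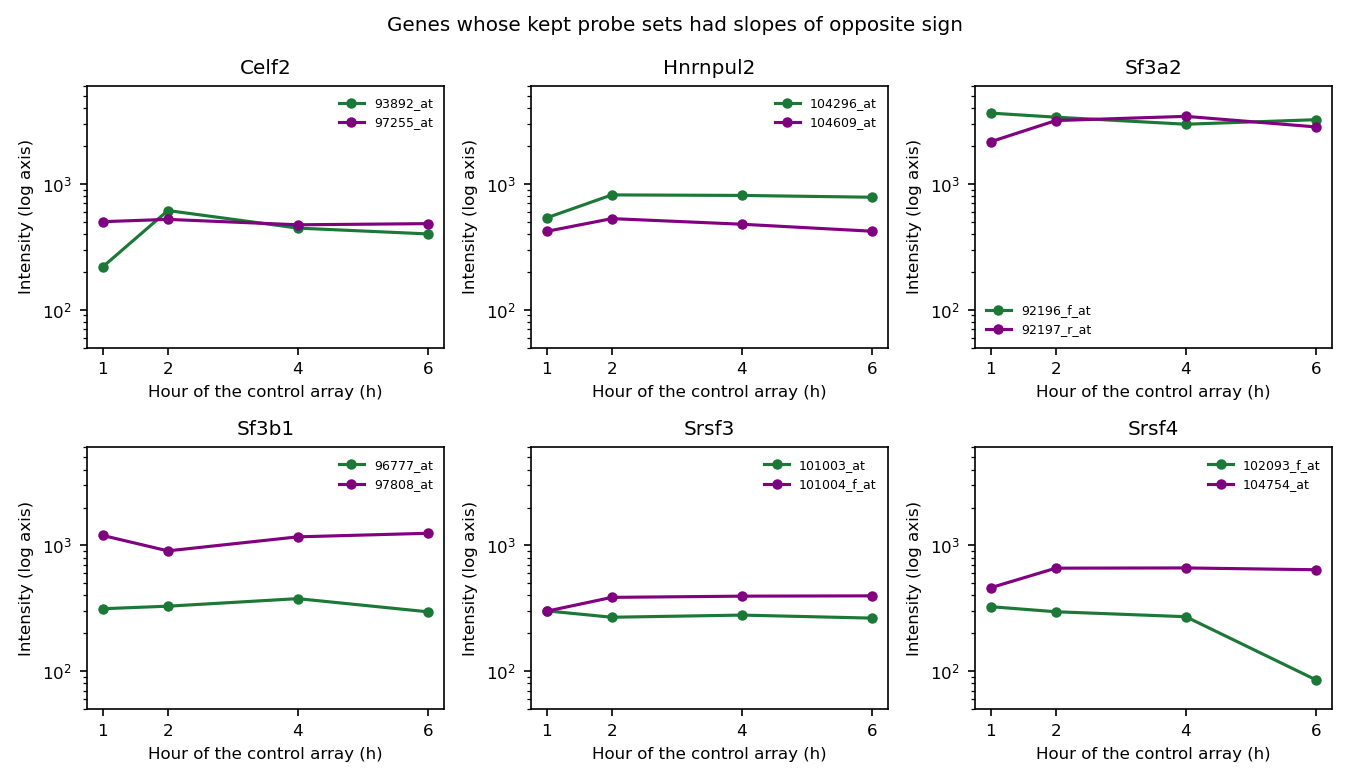
Intensity (log axis) by hour for the 6 genes whose 2 bright probe sets had slopes of opposite sign over the 4 arrays, 1 panel per gene and 1 line per probe set. In Celf2, Hnrnpul2, Sf3a2, Srsf3 and Srsf4, 1 line starts low at 1 h, and in Srsf4 the other line drops to 85.5 at 6 h.

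Other splicing and RNA-binding genes that the name rule does not reach were taken from a list of their own. Of 90 genes listed, 74 were found, with 100 probe sets, 84 of them bright enough. In limma 0 of 84 passed the trend test. At an unadjusted p under 0.05 there were 3 positive and 1 negative (against 2.04% and 2.36% of all probe sets). Slopes were positive in 33 of 84 (against 46.5%). Without the 1 h array, slopes were positive in 36 of 84 (against 47.7%). The unadjusted limma counts were then 3 positive and 4 negative, against 5.23% of all probe sets in either direction. At 1 h, 7 of 84 lay at least 2-fold from the mean of the others (8.33%, against 7.08% of all). The largest positive slopes were those of Matr3, a nuclear matrix protein (157, 470, 431 and 618), Cirbp, a cold-induced RNA-binding protein (682, 574, 994 and 1221), and Sart1, a protein of the tri-snRNP (47.2, 281, 304 and 131). The most negative were those of Rbm14 (242, 174, 138 and 72.1), Sf1, the branch-point binding protein (329, 141, 183 and 104), and Gemin5, which helps to assemble snRNPs (242, 142, 38.5 and 150). A second bright Rbm14 probe set, with the suffix _f_at, read 355, 426, 193 and 313, lowest at 4 h. The Sf1 probe set has the suffix _r_at, and another of Sf1 was under the floor throughout, at 14.0, 9.2, 4.5 and 6.1. The brightest genes of the list were Ybx1, Matr3 and Pcbp1. Ybx1, a cold-shock domain protein, read 15591, 14512, 15798 and 14357, and Pcbp1, a poly(C)-binding protein, 4974, 4648, 4321 and 4627. A second probe set of Matr3, with the suffix _f_at, read 10703, 7693, 9890 and 9262, without the low value at 1 h. Another bright one, with the suffix _r_at, read 219, 135, 127 and 145, highest at 1 h.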

How the data were processed

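RNA of the 4 control samples was measured on single-channel arrays. The authors deposited 1 intensity per probe set and array on a linear scale. The software, scaling and genome build behind these values are not given in the sources used here. The deposited columns had 2%-trimmed means between 500.31 and 500.32, a common scale. The table has 12488 rows, 66 of them controls. Gene symbols came from the platform annotation supplied for this work. Symbols of the members were the same in the GRCm38.p6 gene table, and no coordinates are given.

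Intensities were floored at the 10th percentile and logged (log2), and probe sets under the 40th percentile of mean log2 were left out of tests. The trend is limma 3.58.1 in R 4.3.3 (lmFit on the hour, eBayes with an intensity trend, 2 residual degrees of freedom), two-sided, with Benjamini-Hochberg adjustment over 7453 probe sets. Differences between single arrays have no test. On simulated data of 7453 probe sets with 200 changed, 31% of slopes of 0.4 and 75% of slopes of 0.8 log2 units per hour were recovered. Most slopes of 0.4 were thus missed in that simulation. Its noise was normal, its SDs were shuffled between probe sets regardless of brightness, and no array stood apart. The rates may therefore differ for the members in the real arrays.

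Alternatives were median scaling, quantile normalization, no or a stricter filter (60th percentile), floors at the 5th and 20th percentiles, log2 of the hour, a variance prior without trend, leaving out each array, a neuronal list without Rbfox2, Khdrbs3 and Snrpn, and members without probe sets that may share sequence. A comparison of the later arrays among themselves was added after the data were seen. Genes named are all neuronal probe sets, the brightest of each family, the 5 of largest slope in each direction, the 5 of smallest and of largest SD, those at least 2-fold apart at 1 h, and genes whose bright probe sets had slopes of opposite sign. Of the genes outside the name rule, the 3 brightest and the 3 of largest slope in each direction are named. Further probe sets of these genes were added after their values were seen. Elavl1, Hnrnpu, Ptbp3, Sf3b6, U2af1 and the second Hnrnpdl probe set were named after their values were seen. The members and lists were chosen with earlier results of these data known. The number of arrays limits the precision.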

Additional observations from a re-analysis of the deposited data

Results flagged for a closer look

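Of the 39 named members that were bright enough, 5 had 1 array so far from the other 3 that its gap to the nearest of them, divided by the range of all 4, passed Dixon's 95% critical value on the log2 scale. Chance flags about 1 in 20 such groups, and 8.63% of all 7453 probe sets were past that limit. Many of the 39 were named for large slopes, SDs or differences at 1 h in these same values. Their count is therefore not comparable with that share, and only the count over all 72 members, given below, is set beside it. The 1 h array was the lowest in 4 of the 5. At 1 h, Celf1 read 22.2, the lowest value among its arrays, Srsf3 read 300.1 on its _f_at probe set, Srsf4 461.5 on its probe set of positive slope and Hnrnpul2 538.0 on its probe set of positive slope. The remaining one was the _f_at probe set of Srsf4, at 85.5 in the 6 h array. Over all 72 bright members 7 passed that limit (9.72%), in 5 of which the 1 h array was the one apart, as it was in 390 of 643 on the whole array.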

How the results depend on the processing

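No paired analysis was possible because there is 1 group, with 1 array for each hour. The count of members past the trend threshold was 0 in the settings tried. The median SD was between 0.16 and 0.25 for all members, between 0.20 and 0.31 for neuronal and between 0.16 and 0.25 for general ones. The median slope was between -0.02 (without the 6 h array) and 0.09 (without the 1 h array) for neuronal members, and between -0.01 and 0.01 for general ones, with the positive values under median scaling and quantile normalization. The counts of 2-fold differences followed the filter on dim probe sets. With no filter, 6 members lay 2-fold from the mean of the others at 1 h and 6 at 4 h, and 11, 10 and 8 differed from 1 h at 2, 4 and 6 h. With the filter at the 60th percentile, 1 member was apart from the mean of the others at 1 h, 0 were at 2 h and 1 was at 6 h. Against 1 h, 3, 2 and 1 then differed at the later hours. Of the genes outside the name rule, 11 and 1 were apart at 1 h under these filters, against 7. Without the 1 h array, 1 member differed at 2 h from the mean of the other 2. Of members at an unadjusted p under 0.05, leaving out each array in turn gave 2 to 9, with 8 without the 1 h array, 9 without the 2 h array and 2 without the 6 h array, against 4.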
